A study of Solanum lycopersicum with 12 samples.

Results

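In tomato leaves (Solanum lycopersicum), 70 of 34075 gene models were at or near 0 in every library from unheated plants and above a small minimum in every library from heated plants. The study grew plants under 4 conditions and sequenced 3 leaf libraries of each: salinity plus heat (called the combination here), heat alone, salinity alone and control. The labels give no cultivar, salt dose, temperature, duration or plant age, and they do not say how many plants stand behind a library, so p-values measure only the spread between these libraries. Levels are given as CPM, the deposited count divided by the library's total and multiplied by 1000000. A gene model was taken as a member if it had at most 0.1 CPM in each of the 6 unheated libraries (salinity and control) and at least 0.1 CPM in each of the 6 heated ones (combination and heat). Up to 150 were to be taken, ranked by the lowest CPM over the heated libraries, and only 70 met both limits, so all of them are described. The members were thus chosen by their CPM in heated and unheated libraries, and that difference is given as a description without a test, and the comparison tested is that of the combination with heat.

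Plant cells respond to high temperature mainly through heat shock transcription factors, which bind short promoter elements and switch on genes for chaperones that keep other proteins folded. Many genes of this kind are almost silent in unheated leaves, and heat can also raise transcripts from regions that chromatin normally keeps quiet. The identifiers in the table come from the ITAG tomato annotation, and none of the 34075 could be matched to the reference gene table used here. No member is therefore given a gene name, a role or a sequence, heat shock genes could not be listed, and the leaf label could not be checked against marker genes. In the identifiers, the digits before the g give the chromosome in that annotation.

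Near silence without heat was common, and a heated level above the minimum was rare among those gene models. In all, 12551 gene models stayed at or under 0.1 CPM in the 6 unheated libraries, and 8157 of these had no count in any of the 12. At least 1 count in all 6 heated libraries was found for 577. The 70 members were 0.558% of the 12551. A further 100 reached the minimum in all 3 heat libraries but not in all 3 combination libraries, and 70 did so in all 3 combination libraries but not in all 3 heat libraries. The opposite pattern, at most 0.1 CPM in all 6 heated libraries and at least 0.1 CPM in all 6 unheated ones, was found for 16 gene models. Both patterns were counted here with column totals.

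The members together had 34.2 ± 6.10 CPM in the combination and 33.9 ± 7.91 CPM in heat, against 2.16 ± 0.588 CPM in salinity and 2.09 ± 0.291 CPM in control (sum over 70 members, mean ± SD, n = 3 each). The lowest heated library held 25.7 CPM and the highest unheated library 2.55 CPM. CPM used column totals here, while the edgeR test below rescales those totals by TMM factors. The factors were 1.02 to 1.23 in the heated libraries and 0.668 to 0.995 in the unheated ones. TMM-scaled levels would thus be lower with heat and higher without it. In bulk leaf RNA, fewer cells of a type and less RNA per cell cannot be told apart. The median member had 0.292 ± 0.0536 CPM in the combination and 0.293 ± 0.0506 CPM in heat, against 0.0204 ± 0.0180 CPM in salinity and 0.0317 ± 0.00402 CPM in control (n = 3 each). These are low levels: the highest value of any member in any heated library was 739 counts, the lowest was 7 counts, and no unheated library held more than 7 counts of a member. The 95% exact Poisson interval of 7 counts runs from 2.81 to 14.4 and covers counting error only. The totals behind the libraries ranged from 56281339 to 78370751 counts, so that 0.1 CPM corresponds to between 5.63 and 7.84 counts and 3 counts to between 0.0383 and 0.0533 CPM.

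**Figure D1:**
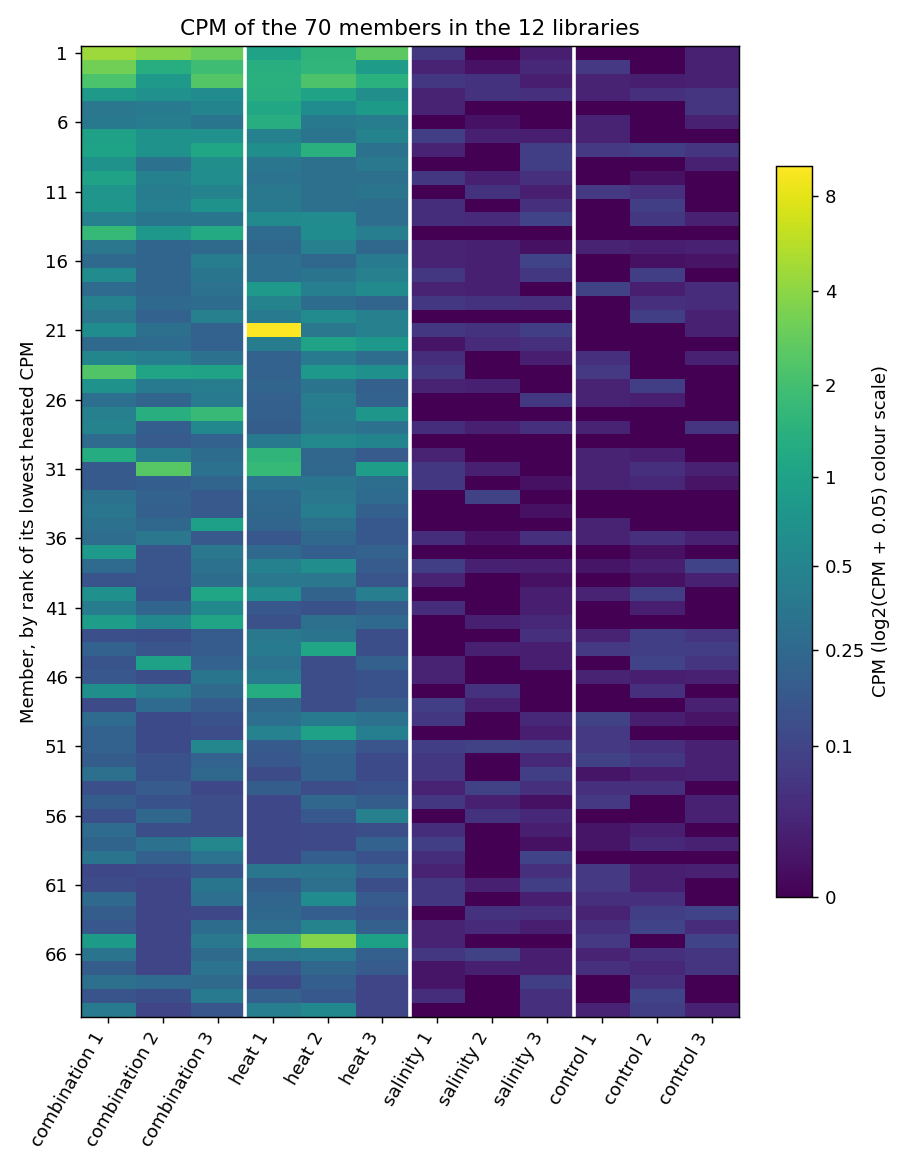
CPM of the 70 members (rows, by rank of the lowest heated value) in the 12 libraries (columns), on a log2(CPM + 0.05) colour scale. The 6 heated libraries are brighter throughout because the members were chosen for it, and the brightest cell is Solyc01g100390.3.1 at 10.02 CPM in heat replicate 1.

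**Figure D2:**
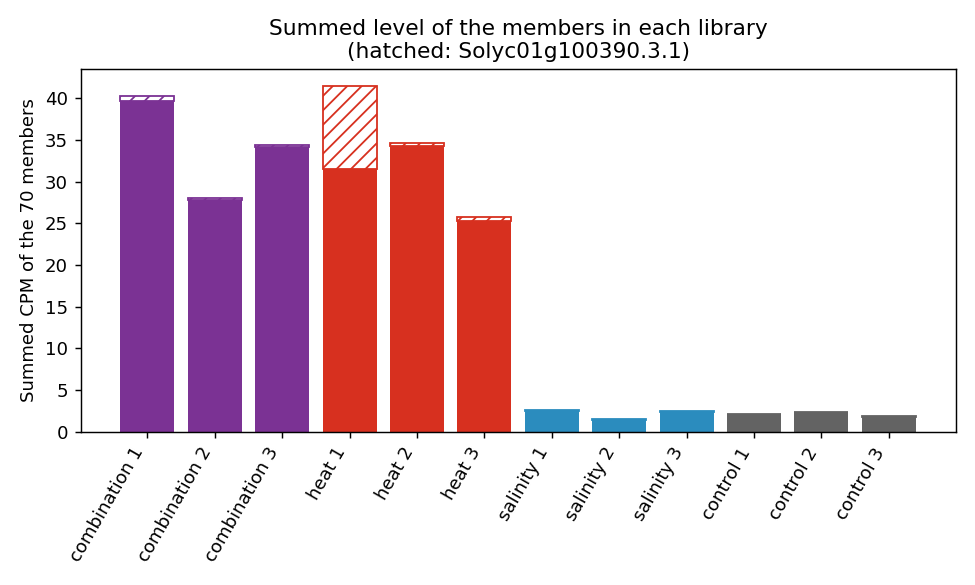
Summed CPM of the 70 members in each library, with the share of Solyc01g100390.3.1 hatched. The heated libraries lie between 25.7 and 41.5 CPM and the unheated ones between 1.49 and 2.55 CPM, and the hatched share is large only in heat replicate 1.

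Of the 420 values of members in unheated libraries, 156 (37.1%) were 0. Of the members, 9 had a count in all 6 unheated libraries and 28 had counts in 3 or fewer. Members had a pooled 429 counts in salinity and 403 in control. By the mean over 3 libraries, 34 members were higher in salinity than in control, 33 were lower and 3 were at 0 in both. Salinity without heat was not tested for single members, since the limits held both groups at or under 0.1 CPM. Salinity replicate 2 held the fewest members, with 34 at 1 count or more. Salinity replicates 1 and 3 held 49 and 52, and the control libraries between 41 and 46. Salinity replicate 2 also held the fewest gene models with a count, 21843, against 22013 to 23217 in the other libraries. The lowest TMM factor, 0.668, was that of salinity replicate 2, where the median member had 0 CPM.

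The ratio of pooled heated to pooled unheated CPM, which the choice of members fixes to be above 1, had a median of 12.2 over the 70 members, bounds included. It was at least 10 for 38 members, at least 40 for 16 and under 5 for 9. Among the 64 members with more than 3 unheated counts in all, it ranged from 2.93 to 133, with a median of 9.73. All heated to unheated ratios given here use column totals. With TMM scaling they would be smaller, and they were not recomputed.

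No count in any unheated library was found for 3 members, which are named here after their values were seen. Solyc11g061700.2.1 had 1.71, 0.795 and 1.24 CPM in the combination and 0.271, 0.609 and 0.434 CPM in heat. All 3 combination libraries lay above all 3 heat libraries. Solyc12g032930.3.1 had 0.455, 1.33 and 1.79 CPM in the combination and 0.203, 0.401 and 0.778 CPM in heat, and the groups overlapped. Solyc12g010360.2.1 had 0.268, 0.179 and 0.217 CPM in the combination and 0.380, 0.553 and 0.498 CPM in heat, with all heat libraries above all combination libraries. A count of 0 was set against 3 counts over the 6 unheated libraries together, the one-sided 95% limit that it allows. Against that limit, heated levels were at least 108-fold higher for Solyc11g061700.2.1, at least 105-fold higher for Solyc12g032930.3.1 and at least 45.7-fold higher for Solyc12g010360.2.1. The 3 bounds treat every count as independent and the heated counts as exact. They would be lower if both mates of a read pair were counted, which was not tested.

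Only 1 or 2 unheated counts in all were found for 3 other members, also named after their values were seen. Solyc01g107850.4.1 had 147 counts in the heated libraries and 1 in the unheated ones, a ratio of 130 whose exact 95% counting interval ran from 23.0 to 5167. Solyc10g086590.3.1 had 117 counts with heat and 1 without, a ratio of 103 with an interval from 18.2 to 4119. Solyc11g044860.3.1 had 156 and 2 counts, a ratio of 68.9 with an interval from 18.8 to 574. These intervals treat every count as independent, and would be wider if both mates of a read pair were counted, which was not tested.

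The member of highest rank was Solyc08g028990.1.1. It had 4.54, 3.70 and 2.86 CPM in the combination and 1.00, 1.54 and 2.60 CPM in heat, against 0.0676, 0 and 0.0275 CPM in salinity and 0, 0 and 0.0321 CPM in control. Its 3 combination libraries all lay above its 3 heat libraries, and its pooled heated level was 133 times the unheated one (1201 and 8 counts). The log2 fold change of the combination over heat was 1.11 (SE 0.47), and the adjusted p was 0.0751 (edgeR, quasi-likelihood F test, Benjamini-Hochberg over 20717 gene models). The difference did not pass 0.05 there. Over the alternative fits the adjusted p ran from 0.0185 in the Wald test of DESeq2 to 0.223 without heat replicate 1.

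Solyc10g085890.1.1 came next by rank, with 3.21, 1.32 and 1.88 CPM in the combination and 1.38, 1.59 and 0.880 CPM in heat. Its unheated values were 0.0338, 0.0149 and 0.0413 CPM in salinity and 0.0711, 0 and 0.0321 CPM in control. The heated groups overlapped. Solyc12g099360.2.1 had 2.18, 0.820 and 2.39 CPM in the combination and 1.40, 2.25 and 1.43 CPM in heat, against 0.0676, 0.0595 and 0.0275 CPM in salinity and 0.0355, 0.0275 and 0.0321 CPM in control. This member was detected in all 12 libraries, and its heated groups overlapped too. The 3 members of highest rank made up between 20.7% and 24.7% of the members' summed counts in the combination libraries and between 9.12% and 19.1% in the heat libraries.

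The highest heated value reached 1 CPM in 20 of the 70 members, while the lowest heated value was at least 0.3 CPM in 11 and under 0.15 CPM in 32. Solyc03g025250.4.1 had 0.830, 0.679 and 0.590 CPM in the combination and 1.34, 1.01 and 0.638 CPM in heat. Solyc05g032630.1.1 had 0.361, 0.385 and 0.497 CPM in the combination and 1.15, 0.609 and 0.842 CPM in heat, where every library lay above every combination library. Solyc06g070950.2.1 had 0.375, 0.410 and 0.342 CPM in the combination and 1.30, 0.373 and 0.421 CPM in heat. Here heat replicate 1 stood above the other 5 heated libraries, which lay close together. None of these 3 had an adjusted p under 0.05 for the combination against heat (0.308, 0.207 and 0.275 in the edgeR test).

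Several members of the next ranks were higher on average in the combination. Solyc04g014880.4.1 had 0.991, 0.705 and 0.683 CPM in the combination and 0.461, 0.332 and 0.485 CPM in heat, without overlap. Solyc08g005330.2.1 had 0.750, 0.410 and 0.481 CPM in the combination and 0.366, 0.304 and 0.332 CPM in heat, again without overlap. Solyc03g097390.3.1 had 0.776, 0.449 and 0.714 CPM in the combination and 0.380, 0.304 and 0.281 CPM in heat, and its groups did not overlap either. In the edgeR test their log2 fold changes were 0.90 (SE 0.49, adjusted p = 0.163), 0.70 (SE 0.62, adjusted p = 0.382) and 1.00 (SE 0.66, adjusted p = 0.245), so none passed. Solyc06g035710.1.1, Solyc02g014040.1.1 and Solyc03g006530.3.1 had overlapping groups and adjusted p of 0.762, 0.458 and 0.815 in the same test.

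**Figure D3:**
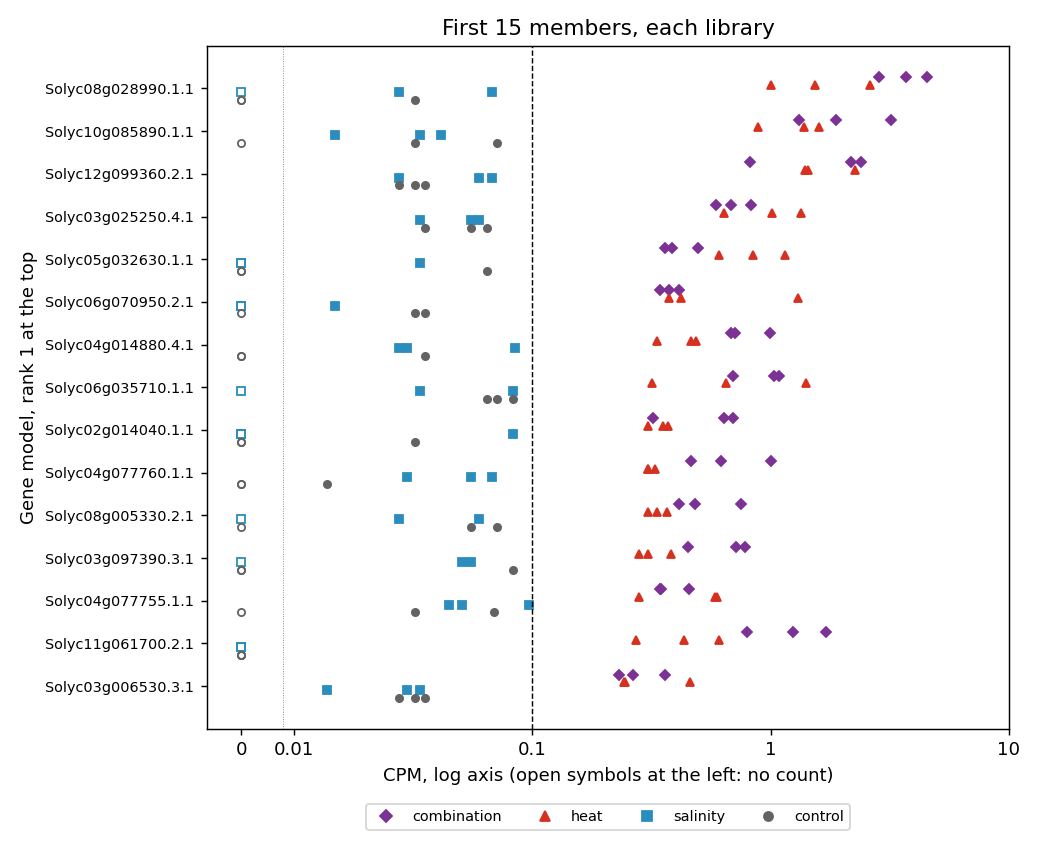
CPM of the 15 members of highest rank in each of the 12 libraries, on a log axis with counts of 0 drawn as open symbols at the left edge. The dashed line at 0.1 CPM is the limit that separates heated from unheated libraries by choice of the members.

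Whether adding salinity to heat changed the members was taken from the combination against heat, a contrast of the 6 heated libraries that the limits did not set directly. The limits still bear on it, since both groups had to reach 0.1 CPM. Of the 70 members, 69 were tested, each passing the filter on low counts through its heated libraries. The member left out was Solyc03g098580.1.1, which had 0.173 ± 0.0818 CPM in the combination and 0.116 ± 0.0105 CPM in heat (SD, n = 3 each). In the edgeR test, 6 of the 69 (8.70%) differed at an adjusted p under 0.05, against 40.3% of all 20717 tested gene models. The combination was higher in 2 of them (2.90%, against 17% of all tested) and lower in 4 (5.80%, against 23.4%). Without adjustment, 11 members had a p under 0.05, against 50.1% of all tested gene models.

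Errors were larger for the members. The median SE of the log2 fold change was 0.61 for the members and 0.25 for all tested gene models, while the median absolute log2 fold change was 0.67 for the members and 0.56 for all tested. The part of the larger error in the smaller share of calls was not tested, and the few calls do not show that salinity left the other members unchanged. The median log2 fold change was 0.01 for the members and 0.00 for all tested gene models, with quartiles of -0.59 and 0.70 for the members and -0.67 and 0.49 for all tested. It was positive for 36 members and negative for 33. The combination libraries all lay above the heat libraries for 13 of the 70 members (26.3% of all tested gene models did so), and the heat libraries all lay above the combination libraries for 9 (27.7% of all tested). The mean CPM differed by at least 2 times in 22 members, higher in the combination for 13 and higher in heat for 9. The share of all tested gene models with such a difference was not counted, so nothing particular to the members is read from it.

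**Figure D4:**
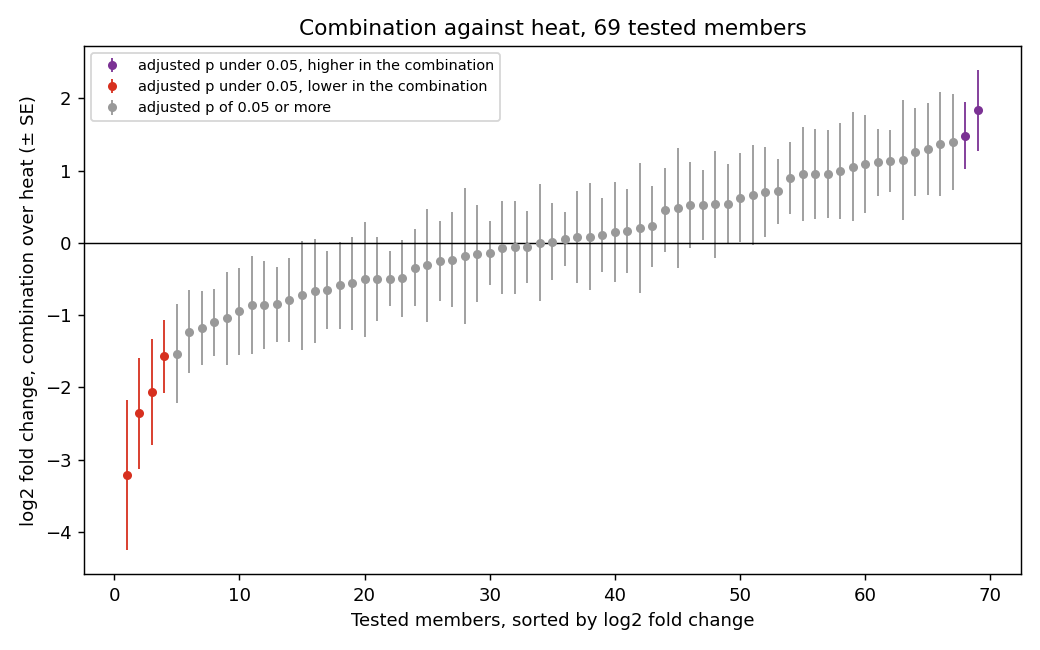
Log2 fold change of the combination over heat for the 69 tested members, sorted, with bars of 1 SE from edgeR's fit. The 2 members called higher and the 4 called lower stand at the right and left ends, and the values span -3.22 to 1.83.

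The 2 members that passed the test as higher in the combination were Solyc05g039950.2.1 and Solyc11g061700.2.1. Solyc05g039950.2.1 had 0.910, 0.551 and 1.06 CPM in the combination and 0.136, 0.304 and 0.255 CPM in heat, against 0, 0.0297 and 0.0413 CPM in salinity and 0 CPM in all 3 control libraries. The combination exceeded heat by 1.83 on the log2 scale (SE 0.56; edgeR adjusted p = 0.0251, range 0.00567 to 0.0876 over the alternatives), and all 3 combination libraries were above all 3 heat libraries. The call was kept in 1 of the 6 refits that left out a heated library, that without combination replicate 2. Solyc11g061700.2.1, whose values are given above, exceeded heat by 1.49 on the log2 scale (SE 0.46; edgeR adjusted p = 0.0319, range 0.0118 to 0.0993 over the alternatives). Its call was kept without combination replicate 2 and without heat replicate 2, and lost without each of the other 4 heated libraries.

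Of the 4 members that passed as lower in the combination, 3 had groups that did not overlap. Solyc08g080450.3.1 had 0.857, 0.103 and 0.373 CPM in the combination and 1.91, 3.72 and 0.970 CPM in heat, a log2 difference of -2.36 (SE 0.77; edgeR adjusted p = 0.0277). Solyc03g122070.3.1 had 0.214, 0.115 and 0.124 CPM in the combination and 0.475, 0.982 and 0.447 CPM in heat, a log2 difference of -2.06 (SE 0.73; edgeR adjusted p = 0.0406). Solyc03g044440.2.1 had 0.254, 0.269 and 0.217 CPM in the combination and 0.420, 1.02 and 0.791 CPM in heat, a log2 difference of -1.57 (SE 0.50; edgeR adjusted p = 0.0295). In the 6 refits without a heated library, the call was kept in 3 for Solyc08g080450.3.1, in 1 for Solyc03g122070.3.1 and in 1 for Solyc03g044440.2.1. The highest adjusted p came without heat replicate 2 for all 3 (0.139, 0.164 and 0.126). The call of Solyc03g122070.3.1 was also lost with total-count scaling (adjusted p = 0.0539 in edgeR's test) and without a filter (0.0599).

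The fourth, Solyc01g100390.3.1, is named here after its values were seen. It had 0.616, 0.308 and 0.217 CPM in the combination and 10.02, 0.360 and 0.459 CPM in heat, against 0.0676, 0.0595 and 0.0826 CPM in salinity and 0, 0 and 0.0321 CPM in control. Heat replicate 1 alone held 739 counts of it, and the other 2 heat libraries overlapped the combination. Its log2 fold change of -3.22 (SE 1.04, adjusted p = 0.0270 in edgeR's test) became -0.13 without heat replicate 1, with an adjusted p of 0.892. This member gave heat replicate 1 the highest sum of all libraries, 41.5 CPM, which was 31.5 CPM without it. Without this member the sums were 33.9 ± 5.95 CPM in the combination and 30.3 ± 4.59 CPM in heat (n = 3 each).

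The counts of calls moved with single heated libraries, and the share of all tested gene models called moved too. The number higher in the combination was 0 without combination replicate 3 and 0 without heat replicate 1, where 13.4% and 11.6% of all tested gene models were called higher. In those refits 4 and 3 members had an unadjusted p under 0.05 in that direction in edgeR's test, against 20.3% and 19.1% of all tested. The number lower was 0 without combination replicate 2 and 0 without combination replicate 3, where 15.4% and 20.2% of all tested gene models were called lower. There 5 and 4 members had an unadjusted p under 0.05 in that direction, against 21.9% and 26% of all tested. The number higher was 1 without combination replicate 1 (16.1% of all tested), 1 without heat replicate 2 (8.36%) and 1 without heat replicate 3 (14.8%). It rose to 3 without combination replicate 2 (11.5%). The number lower was 2 without combination replicate 1 (21.6% of all tested), 2 without heat replicate 1 (19.5%) and 1 without heat replicate 2 (15.3%). It stayed at 4 without heat replicate 3 (22.7%).

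Replicates of a heated group differed by a median factor of 2.05 between the highest and lowest combination library and 1.96 between the highest and lowest heat library. The factor exceeded 3 in 14 members within the combination and in 15 within heat. Solyc01g079300.4.1, named after its values were seen, had 0.174, 2.49 and 0.310 CPM in the combination and 1.68, 0.249 and 0.919 CPM in heat. Its mean of 0.991 ± 1.30 CPM in the combination thus had an SD above the mean, as did the 3.61 ± 5.55 CPM of Solyc01g100390.3.1 in heat. The same held in heat for Solyc01g107825.1.1 (0.653 ± 0.774 CPM) and Solyc09g030370.3.1 (0.518 ± 0.667 CPM). In the combination it held for Solyc05g013540.1.1 (0.451 ± 0.466 CPM). Solyc09g030370.3.1 and Solyc05g013540.1.1 are named after their values were seen. The highest of a member's 6 heated values lay most often in heat replicate 2 (20 members) and combination replicate 1 (17), and in heat replicate 3 for only 1. The lowest lay most often in combination replicate 2 (20) and heat replicate 3 (15), and those 2 libraries also had the smallest sums, 28.1 and 25.7 CPM.

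The members were spread over all 12 numbered chromosomes of the identifiers, with 10 on chromosome 3, 8 each on chromosomes 1 and 8 and 3 each on chromosomes 6 and 7. Chromosome 3 held 14.3% of the members and 9.75% of all gene models, and chromosome 6 held 4.29% of the members and 8.13% of all. Only 4 members were the next gene model to another member in identifier order, in 2 pairs. Solyc04g077755.1.1 had 0.455, 0.346 and 0.342 CPM in the combination and 0.583, 0.595 and 0.281 CPM in heat, and its neighbour Solyc04g077760.1.1 had 1.00, 0.462 and 0.621 CPM in the combination and 0.326, 0.304 and 0.306 CPM in heat. The heated groups overlapped for Solyc04g077755.1.1 but not for its neighbour. The log2 fold change was -0.34 (SE 0.53) for Solyc04g077755.1.1 and 1.14 (SE 0.43) for Solyc04g077760.1.1, with adjusted p of 0.628 and 0.0503 in edgeR's test, and the difference between the neighbours was not tested.

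The other pair lay on chromosome 1. Solyc01g107825.1.1 had 1.29, 0.410 and 0.279 CPM in the combination and 1.55, 0.235 and 0.179 CPM in heat, and Solyc01g107850.4.1 had 0.830, 0.154 and 0.357 CPM in the combination and 0.258, 0.194 and 0.217 CPM in heat. Both were highest in combination replicate 1 among the combination libraries and in heat replicate 1 among the heat libraries. In heat the libraries differed little for Solyc01g107850.4.1, with 19, 14 and 17 counts, against 114, 17 and 14 for Solyc01g107825.1.1. Neighbouring models can overlap or share reads, and whether these do was not tested. Of the members, 25 (35.7%) were first versions of their gene model by the digit after the point, compared with 34.5% of all gene models and 65.4% of the 12551 that were near silent without heat. The identifier number did not end in 0 for 10 members (14.3%), for 13.7% of all gene models and for 29.6% of the 12551.

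The limits cut through a continuous range of levels. The last members inside the heated limit were Solyc04g005780.1.1, Solyc08g062930.3.1 and Solyc09g065710.1.1, each with 0.102 CPM (8 counts) in heat replicate 3 as the lowest heated value. Just outside it were Solyc04g015000.2.1 and Solyc06g076540.1.1, each at 0.0949 CPM in heat replicate 1, and Solyc07g038110.3.1 at 0.0937 CPM in combination replicate 1, each with 7 counts. Just inside the unheated limit were Solyc03g053085.1.1, Solyc04g077755.1.1 and Solyc10g077060.3.1, each at 0.0964 CPM in salinity replicate 3. Just outside it were Solyc01g102650.2.1, Solyc01g103120.3.1 and Solyc01g150159.1.1, each at 0.101 CPM in salinity replicate 1. Without salinity replicate 1, 108 gene models would have met the limits.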

How the data were processed

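The authors deposited 1 table of raw counts per gene model, with 34075 gene models, 12 library columns and no normalization. Trimmomatic 0.33 and Bowtie2 2.3.4 are named, without their roles, in the submitters' processing notes. The counting program, strandedness and any treatment of multi-mapping reads are not given in the sources used here, so counts of overlapping, antisense or near-identical gene models are uncertain. Even numbers made up 56.8% to 82.9% of the members' counts of 1 to 20, depending on the library. Over all gene models the share was 66.0% to 69.8%, so the excess was not particular to the members. Whether both mates of a pair were counted was not tested.

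The members and lists were chosen with earlier results of these data known. CPM used the column total. Tests used edgeR 4.0.16 under R 4.3.3, with filterByExpr, TMM scaling and 1 quasi-likelihood model over all 12 libraries with the 4 groups as its only factor, and Benjamini-Hochberg adjustment covered 20717 gene models. SEs were derived from the F statistic and the size of the log2 fold change, and are approximate. The script was tested on simulated data, in which only the combination was given changed levels. No gene model there was set to be near silent without heat, so that run does not cover the members' pattern. Named members were the first 15 by rank, up to 6 called members without overlap in each direction, members at the limits and members that are neighbours. Solyc03g098580.1.1 was named because it was left out of the test. Others are marked as named after their values were seen. The keyword lists planned for heat shock genes, transcription factors and tissue markers were not used, since no identifier matched the reference table. Alternatives were other scalings and filters, DESeq2 1.42.0, a replicate block, the heated libraries alone, other member limits, each library left out in turn and, added after the data were seen, halved counts.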

Additional observations from a re-analysis of the deposited data

How the results depend on the processing

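The members' median log2 fold change of the combination over heat moved by less than 0.163 in every alternative run. That limit is the standard error of a difference of 2 group means, from the members' median log2(CPM + 0.1) in each heated library. The median log2 fold change lay between -0.08 and 0.17 without 1 library. Against 2 members called higher and 4 called lower, the Wald test of DESeq2 gave 4 higher (22.6% of all gene models tested in that fit), halved counts 4 higher (17.3%), and the heated libraries alone 6 higher (18.6%). With the replicate number as a block, 1 was called higher (15.2% of all tested) and 2 lower (22%). The call of Solyc03g122070.3.1 was lost under that block (edgeR adjusted p = 0.0644), as were those of Solyc11g061700.2.1 and Solyc01g100390.3.1. Same-numbered combination and heat libraries had correlations of their deviations from the group mean of -0.0712, -0.480 and -0.207. Differently numbered ones had correlations between -0.238 and 0.362. With 3 libraries per group these values are tied to each other, so they cannot tell whether same-numbered libraries share plants or a batch. Without 1 library, between 0 and 3 were called higher and between 0 and 5 lower, beside 8.36% to 18.5% and 15.3% to 24.6% of all tested. The number of gene models that met the limits was 12 with 0.05 CPM as the unheated limit, 27 with 0.2 CPM as the heated limit, and between 73 and 108 without 1 library. With TMM-scaled CPM it was 48, and the 16 gene models of the opposite pattern were not recounted that way. Ranking by the mean changed nothing, since fewer than 150 gene models met the limits. DESeq2 gave no adjusted p for Solyc01g100390.3.1.

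Reversals of direction affected only uncalled members. The log2 fold change was -0.00056 for Solyc01g107825.1.1 without a filter and -0.51 for Solyc01g079300.4.1 with the replicate block. Without 1 library it ranged from -0.80 to 1.62 for Solyc01g107825.1.1, from -1.96 to 0.87 for Solyc01g079300.4.1, from -0.31 to 0.24 for Solyc03g006530.3.1 and from -0.35 to 0.14 for Solyc03g053085.1.1. It ranged from -0.15 to 0.96 for Solyc06g035710.1.1, from -0.16 to 0.77 for Solyc08g062930.3.1, from -0.53 to 0.12 for Solyc10g086590.3.1 and from -0.21 to 0.44 for Solyc12g099360.2.1. The cause was not tested. The planned counts for a heat shock list were not run, because no identifier matched the reference table.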

Other observations

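The 16 gene models with the opposite pattern, near silent in heated libraries, together had 0.458 ± 0.110 CPM in the combination and 0.223 ± 0.0709 CPM in heat, against 19.2 ± 10.2 CPM in salinity and 10.02 ± 4.01 CPM in control (mean ± SD, n = 3 each). The same limits chose them, so these values are a description.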
